A study of Mus musculus with 6 samples.

Results

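The genes described here were the 3 natriuretic peptide receptor genes *Npr1*, *Npr2* and *Npr3*, the cGMP-dependent kinase gene *Prkg1*, and *Gm5144* and *1700047G03Rik*, non-coding transcripts annotated beside *Npr3*. They were chosen by symbol, with their difference between the groups already known, and made up 6 of the 55401 genes in the count files. Bulk RNA-seq was performed on subcutaneous white adipose tissue (scWAT) of male mice aged 8 weeks, kept at room temperature. The study asked what loss of *Yap* and *Taz*, the coactivators at the end of the Hippo pathway, does to gene expression in this depot. YT-FF, the control that the labels call WT, had floxed *Yap1* and *Taz* alleles without Cre, neither of them on a pure C57BL/6 background. YT-AKO had the same floxed alleles and *Adipoq* Cre on C57BL/6, which deletes in mature adipocytes, so other cells of the tissue kept both genes. Each group had 3 libraries from 3 male mice, so the SDs below are the spread between mice. Each SE came from the edgeR fit, which shares information on spread across genes.

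The libraries held 17740987 to 21838493 counted fragments. In the check of the targeted genes, *Yap1* was lower in the libraries labelled YT-AKO, with 1622, 1300 and 1295 counts in YT-FF and 649, 492 and 529 in YT-AKO. *Wwtr1*, the gene that encodes TAZ, was higher there, with 1818, 1729 and 1918 counts in YT-FF and 3015, 2253 and 2716 in YT-AKO. Taken by itself, the direction of *Wwtr1* goes against the label, but whole-gene counts cannot show whether the floxed exons were lost. These counts cover whole genes, and reads over the floxed exons were not analysed here, so every direction below is between the libraries as labelled. Adipocyte markers were abundant in each library, with a summed level of 14058 to 19231 TPM (transcripts-per-million scale) in YT-FF and 16069 to 18416 in YT-AKO over 8 of 8 listed markers. Of the other cell types listed, B cell markers summed to 1262 to 1528 TPM in YT-FF and 660 to 734 in YT-AKO, Schwann cell markers to 262 to 366 and 153 to 178, smooth muscle and pericyte markers to 383 to 404 and 189 to 296, and skeletal muscle markers to 178 to 579 and 360 to 3305. The skeletal muscle sums overlapped between the groups, with 3305 TPM in YT-AKO 1 alone and 420 and 360 in YT-AKO 2 and 3. Sums of the fibroblast, endothelium, macrophage and T cell markers also overlapped. In the edgeR fit the median log2 fold change was -0.49 for B cell and -0.24 for Schwann cell markers. It was 0.22 for smooth muscle and pericyte markers, against the direction of their TPM sums, and 2.39 for skeletal muscle markers. The part of these cell types in the results below was not tested.

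Natriuretic peptides are hormones of the heart and vessels that also act on fat. NPR-A, encoded by *Npr1*, and NPR-B, encoded by *Npr2*, are membrane guanylyl cyclases that make cGMP when a peptide binds, and in adipocytes cGMP activates the kinase encoded by *Prkg1*, which promotes lipolysis and the thermogenic gene program. NPR-C, encoded by *Npr3*, has no cyclase domain. It takes the peptides up for degradation and couples to inhibitory G proteins, and the ratio of NPR-A to NPR-C is a known determinant of how adipocytes respond to the peptides.

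The sequences at the annotated starts of the 3 genes of the *Npr3* locus are shown because these genes were lower together. All 6 genes had a RefSeq start on GRCm38.p6, the build of the files, in 7 windows of 250 bases before to 50 bases after a start. Each sequence is on its gene's own strand, and capitals mark a match to GGAATG, the core motif of the TEAD factors through which YAP and TAZ bind DNA. *Npr3* is printed for the 250 bases before its RefSeq start, chr15:11907372-11907621 on the minus strand. *Gm5144* is printed for the whole window, chr15:11906275-11906574 on the plus strand, and *1700047G03Rik* likewise, chr15:11966812-11967111 on the plus strand.
Npr3: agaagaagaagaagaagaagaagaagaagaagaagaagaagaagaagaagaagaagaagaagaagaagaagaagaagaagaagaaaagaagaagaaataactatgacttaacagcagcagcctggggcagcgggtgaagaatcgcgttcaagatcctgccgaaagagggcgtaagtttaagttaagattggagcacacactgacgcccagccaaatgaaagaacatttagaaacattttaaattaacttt
Gm5144: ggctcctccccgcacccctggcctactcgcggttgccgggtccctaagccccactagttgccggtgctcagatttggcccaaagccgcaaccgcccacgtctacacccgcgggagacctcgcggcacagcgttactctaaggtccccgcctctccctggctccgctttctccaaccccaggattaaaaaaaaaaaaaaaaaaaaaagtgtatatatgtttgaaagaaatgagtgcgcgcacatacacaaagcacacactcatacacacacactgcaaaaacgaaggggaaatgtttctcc
1700047G03Rik: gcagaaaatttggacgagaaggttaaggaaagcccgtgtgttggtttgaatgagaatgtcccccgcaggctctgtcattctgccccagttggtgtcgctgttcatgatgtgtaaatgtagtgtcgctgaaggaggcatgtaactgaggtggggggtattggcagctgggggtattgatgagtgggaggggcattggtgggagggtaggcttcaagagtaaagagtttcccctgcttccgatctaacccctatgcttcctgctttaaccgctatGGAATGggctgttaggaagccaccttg
The match in *1700047G03Rik* began at base 24 after its RefSeq start, counted from 1 at the start, and was on the printed strand. It was the only TEAD match in the 7 windows of the 6 genes, while 14.7% of the 32851 mouse windows of the same length held 1 on either strand. None of the 7 windows held the C/EBP motif TTGCNNAA, the cAMP response element TGACGTCA or the AGGTCA core of PPAR sites, which 10.8%, 1.79% and 16.3% of all windows held on either strand. The *Npr3* window opened with 28 uninterrupted copies of GAA, a run reached by 0.00913% of all windows. The 2 of 5 GENCODE *Npr3* transcripts whose start has CAGE support began at least 1697 bases further into the gene, the outer one at position 11905674. The sequence before that start was not analysed here, and the near end of the *Gm5144* window lay 601 bases from it.

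*Npr3* (ENSMUSG00000022206, chr15:11839896-11907287, minus strand on mm10, 9389 exon bases) went from one of the more abundant transcripts of the depot to a scarce one. Its fragment counts were 6176, 4539 and 11250 in YT-FF and 203, 176 and 153 in YT-AKO. After TMM scaling, the levels in counts-per-million (CPM) were 263, 199 and 579 in YT-FF and 11.8, 10.4 and 9.04 in YT-AKO. Every YT-AKO library lay far below every YT-FF library, and YT-FF 3 stood above the other two controls. The mean fell 33.4-fold, from 347 ± 203 to 10.4 ± 1.38 CPM (SD, n = 3 in each group), and the fitted log2 fold change was -5.06 (SE 0.446). The SD was 58.6% of the mean in YT-FF and 13.3% in YT-AKO. Without YT-FF 3 the log2 fold change was -4.47 (SE 0.225), and the remaining libraries still did not overlap. Ranked by mean CPM among the 16807 genes that passed the filter on low counts, *Npr3* stood at the 98.3 percentile in YT-FF and at the 39.6 percentile in YT-AKO. In bulk tissue, fewer cells of a type and less RNA per cell cannot be told apart.

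All 6 genes passed the filter on low counts, *Gm5144* and *1700047G03Rik* only through YT-FF. At an adjusted p under 0.05 in the quasi-likelihood fit of edgeR, with Benjamini-Hochberg adjusted values taken over the 16807 genes, 3 of the 6 were lower in YT-AKO and 1 was higher, where 9.01% of all tested genes were lower, 12.6% higher and 21.6% either. The CPM of the groups did not overlap for 4 of the 6, 3 of them lower and 1 higher, against 51.5% of all tested genes (25.8% lower and 25.7% higher). Without YT-FF 1, 0 genes of the whole table passed by edgeR, with an unadjusted p under 0.05 for 4665. Without YT-FF 2, 0 genes were called higher and 2 lower, *Npr3* and *Rpl29*, with an unadjusted p under 0.05 for 4507. The same 4 of the 6 were called without each of the other libraries in turn. The 6 genes were selected on this same contrast, so the counts are a description and their changes are given with errors and no p.

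**Figure D1:**
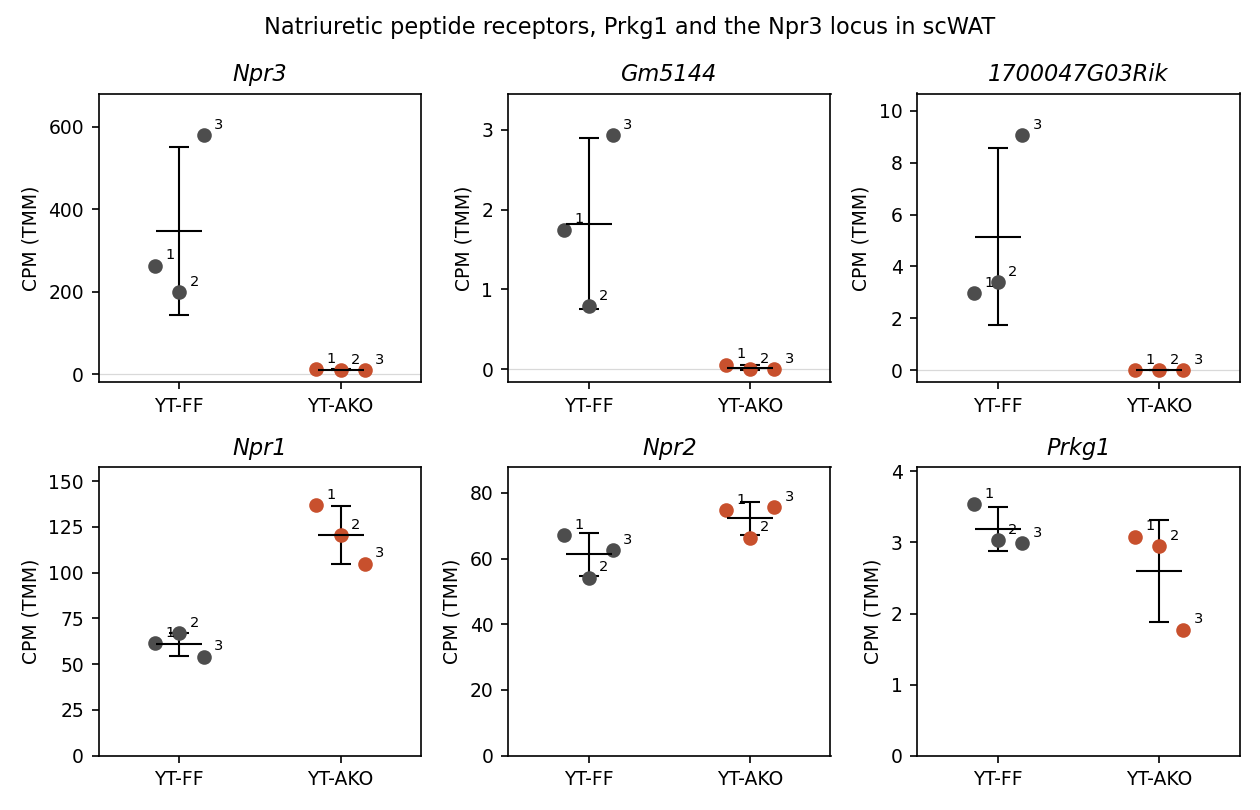
CPM after TMM scaling (y axis, linear, own range per panel) of the 6 genes in the 3 YT-FF and 3 YT-AKO libraries. Points are libraries with their replicate number, and lines are the mean ± SD. *Npr3*, *Gm5144* and *1700047G03Rik* were low in all 3 YT-AKO libraries and highest in YT-FF 3, *Npr1* did not overlap between the groups, and *Npr2* and *Prkg1* did.

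*Gm5144* (ENSMUSG00000115240, chr15:11906519-11907464, plus strand, 946 bases) is annotated by GENCODE as a bidirectional promoter lncRNA with 2 transcripts, running opposite to *Npr3*. It gave 41, 18 and 57 counts in YT-FF and 1, 0 and 0 in YT-AKO, or 1.75, 0.791 and 2.94 CPM against 0.0581, 0 and 0. YT-FF 3 was again the highest library, and a single fragment was seen in all of YT-AKO. The ratio of the summed counts, scaled to library size, was 90.3 with an exact 95% counting interval of 15.9 to 3596, and counting intervals here cover counting error only. Of its span, 769 bases (81.3%) lie inside the span of *Npr3*, and 321 of its exon bases (33.9%) are also exon bases of *Npr3*, where they make up 3.42%. Counting was unstranded, so within the shared exon bases reads of *Gm5144* and *Npr3* cannot be told apart. In the rest of the 769 bases, reads of unspliced *Npr3* RNA would also count for *Gm5144*. Their part in its counts was not tested.

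*1700047G03Rik* (ENSMUSG00000099349, chr15:11964276-11970086, plus strand, 1493 exon bases) is a lincRNA with 6 GENCODE transcripts, 57.0 kb beyond the 5′ end of *Npr3*. It gave 70, 77 and 176 counts in YT-FF and 0, 0 and 0 in YT-AKO, or 2.98, 3.38 and 9.06 CPM against none. With 3 counts per library taken as the upper limit that a count of 0 allows, its level in YT-AKO was at least 29.2-fold lower than the 5.14 ± 3.40 CPM of YT-FF (SD, n = 3). It shares no exon base with *Npr3* or any other annotated gene. *Gm24074*, a transcript inside one of its introns, was also seen only in YT-FF, at 2, 3 and 3 counts, too few to be tested. The RefSeq start used for the window above lies 2786 bases inside the GENCODE gene.

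The non-coding transcripts were scarce next to *Npr3* itself. For every 100 fragments of *Npr3*, the YT-FF libraries held 0.664, 0.397 and 0.507 of *Gm5144* and 1.13, 1.70 and 1.56 of *1700047G03Rik*. The sums in YT-AKO were 1 and 0 fragments beside 532 of *Npr3*. For *Gm5144* that is 0.188% of the pair's fragments, with an exact 95% binomial interval of 0.00475 to 1.04%, which includes the 0.525% of YT-FF, so at this depth a fall different in size from that of *Npr3* was not detectable. For *1700047G03Rik*, 0 of 532 has an exact upper limit of 0.691%, beside a YT-FF share of 1.45% (1.30 to 1.61%). These intervals treat the summed fragments of each group as 1 sample, hold no spread between libraries and describe genes chosen on this contrast.

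*Npr1* (ENSMUSG00000027931, chr3:90450591-90465866, minus strand, 4783 exon bases), the receptor for the atrial and B-type peptides, was the 1 gene of the 6 called higher. It gave 1443, 1521 and 1050 counts in YT-FF and 2352, 2044 and 1776 in YT-AKO. In CPM these were 61.5, 66.8 and 54.1 against 137, 121 and 105, so every YT-AKO library was above every YT-FF library. The mean rose 1.99-fold, from 60.8 ± 6.41 to 121 ± 15.9 CPM (SD, n = 3), with a log2 fold change of 0.99 (SE 0.168). On the TPM scale, which divides by gene length and by the length-scaled total of each library, the groups overlapped, with 49.4, 55.2 and 40.8 in YT-FF and 79.7, 44.2 and 59.7 in YT-AKO. YT-AKO 2, which also had the lowest TMM factor (0.777, against 0.954 to 1.16 in the others), was the library inside the YT-FF range. A non-coding gene, *Gm16048*, overlaps 11.7% of the exon bases of *Npr1*.

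*Npr2* (ENSMUSG00000028469, chr4:43631935-43651244, plus strand, 4667 exon bases), the receptor for the C-type peptide, did not pass the threshold. It gave 1575, 1233 and 1216 counts in YT-FF and 1285, 1126 and 1279 in YT-AKO, or 67.1, 54.2 and 62.6 CPM against 74.7, 66.4 and 75.6. The groups overlapped in CPM, with means of 61.3 ± 6.57 and 72.2 ± 5.06 (SD, n = 3) and a log2 fold change of 0.24 (SE 0.152). The direction turned with the scale. In TPM each YT-AKO library (44.6, 24.9 and 44.0) was below each YT-FF library (55.3, 45.8 and 48.4), and with library totals in place of TMM the log2 fold change was -0.08. Over all tested genes the median log2 fold change was -0.02 with TMM and -0.34 with library totals.

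*Prkg1* (ENSMUSG00000052920, chr19:30564489-31765033, minus strand, 11036 exon bases) was scarce in both groups and did not pass the threshold. It gave 83, 69 and 58 counts in YT-FF and 53, 50 and 30 in YT-AKO, or 3.54, 3.03 and 2.99 CPM against 3.08, 2.95 and 1.77. The first 2 YT-AKO libraries lay close to the controls and YT-AKO 3 lay below them. The log2 fold change was -0.29 (SE 0.324), and it turned to 0.20 when the relation of fold change to gene length was fitted out. In TPM the groups did not overlap, at 1.23, 1.08 and 0.976 in YT-FF and 0.778, 0.468 and 0.437 in YT-AKO. Longer genes tended to lower values in YT-AKO, with a Spearman correlation of -0.376 between log2 fold change and log2 exon length across the 16807 genes, which are not independent replicates.

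Levels of different genes were compared in TPM, where gene length is divided out. In YT-FF, *Npr3* was the highest of the 6 at 138 ± 74.1 TPM (SD, n = 3), and *Npr2* at 49.8 ± 4.89 and *Npr1* at 48.5 ± 7.25 followed with overlapping libraries. *1700047G03Rik* at 12.8 ± 7.87 and *Gm5144* at 7.20 ± 3.95 overlapped each other, and *Prkg1* at 1.10 ± 0.128 was the lowest. In YT-AKO, *Npr1* at 61.2 ± 17.8 TPM and *Npr2* at 37.9 ± 11.2 overlapped at the top, *Npr3* followed at 2.69 ± 0.786 and *Prkg1* at 0.561 ± 0.189. *Gm5144* and *1700047G03Rik* came last, with a single fragment between them. *Npr3* thus moved from above both cyclase receptors in each YT-FF library to below both in each YT-AKO library.

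The ratio of *Npr1* to *Npr3* in TPM, which has no library scaling in it because both genes come from the same library, was 0.459, 0.658 and 0.183 in YT-FF and 22.7, 22.8 and 22.8 in YT-AKO. The YT-AKO libraries were nearly identical and the YT-FF libraries spread widely. The geometric means were 0.381 and 22.8, a 59.8-fold difference. As a share of the TPM of the 3 receptor genes, *Npr3* made up 50.7, 45.4 and 71.4% in YT-FF and 2.74, 2.73 and 2.46% in YT-AKO. *Npr1* took 22.1 ± 8.44% in YT-FF and 60.2 ± 3.55% in YT-AKO, and *Npr2* 22.1 ± 5.74% and 37.1 ± 3.70% (SD, n = 3). The summed TPM of the 3 receptor genes was 212, 185 and 312 in YT-FF and 128, 71.0 and 106 in YT-AKO, lower in each YT-AKO library. Between the cyclase receptors, the ratio of *Npr1* to *Npr2* was 0.894, 1.20 and 0.843 in YT-FF and 1.79, 1.77 and 1.35 in YT-AKO, without overlap.

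**Figure D2:**
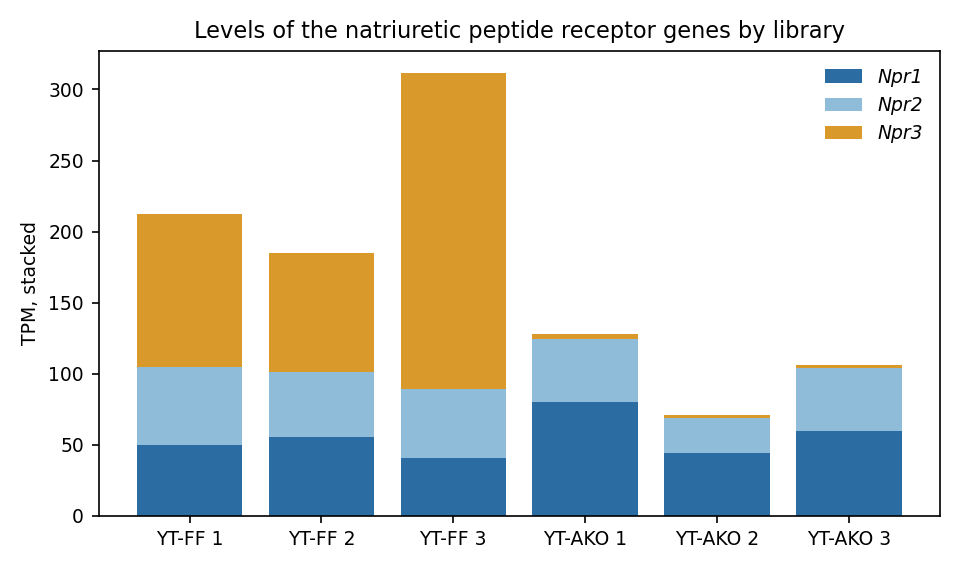
Stacked TPM (y axis, linear from 0) of the 3 natriuretic peptide receptor genes in each of the 6 libraries, 1 bar per library. *Npr3* fills 45.4 to 71.4% of the bar in YT-FF and 2.46 to 2.74% in YT-AKO.

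The 1 Mb on either side of *Npr3* held 37 other annotated genes besides *Gm5144* and *1700047G03Rik*. Of these, 14 had no fragment in any library and 14 were tested, with 1 called higher, 2 called lower and 11 not called in the same edgeR fit. That is 21.4% called, close to the 21.6% of all tested genes, and the 3 calls are listed as values only. *Mtmr12*, a myotubularin-related protein gene 298 kb away, was at 42.6, 42.0 and 42.7 CPM in YT-FF and fell to 30.2, 18.2 and 24.1 in YT-AKO (log2 fold change -0.81, SE 0.202, adjusted p = 0.0318). *Pdzd2*, a PDZ domain protein gene 452 kb away, fell from 130 ± 15.1 to 56.6 ± 27.6 CPM (log2 fold change -1.20, SE 0.359, adjusted p = 0.0492). *Amacr*, a racemase of branched-chain fatty acid oxidation 843 kb away on the other side, rose from 12.7 ± 2.09 to 29.5 ± 2.42 CPM (log2 fold change 1.21, SE 0.184, adjusted p = 0.0171). All 3 calls were lost without YT-FF 1 or without YT-FF 2, both falls also without YT-FF 3, that of *Mtmr12* without YT-AKO 3 and that of *Pdzd2* without YT-AKO 1. With gene length fitted out, *Mtmr12* (-0.54, adjusted p = 0.0551) and *Pdzd2* (-0.64, adjusted p = 0.167) no longer passed by edgeR.

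The nearest tested neighbour, *Sub1*, a transcriptional coactivator gene 74.1 kb beyond the 5′ end of *Npr3*, was not called, with 57.5, 63.9 and 66.9 CPM in YT-FF and 89.1, 190 and 79.2 in YT-AKO (log2 fold change 0.93, SE 0.327, edgeR adjusted p = 0.0737). YT-AKO 2 stood above all other libraries for *Sub1*, and without it the log2 fold change was 0.42 (edgeR adjusted p = 0.0359). Its groups were without overlap in CPM, as were those of 51.5% of all tested genes. *Sub1* also passed by DESeq2 (adjusted p = 0.0312) and by edgeR without the filter (adjusted p = 0.0237), and in no other alternative. The log2 fold changes of the other uncalled neighbours were 0.17 for *Adamts12*, 0.41 for *Tars*, 0.71 for *Gm34759*, -0.24 for *Zfr*, -0.10 for *Golph3*, 1.06 for *Gm2606*, -0.38 for *6030458C11Rik* and -0.16 for *Drosha*. *Mir1898* at -1.65 and *Gm2573* at 1.65 were the extremes, each resting on few fragments and lying inside the span of *Zfr*, as *Gm2606* lies inside that of *Pdzd2*. The median of the 14 was 0.04, beside -0.02 over all tested genes.

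**Figure D3:**
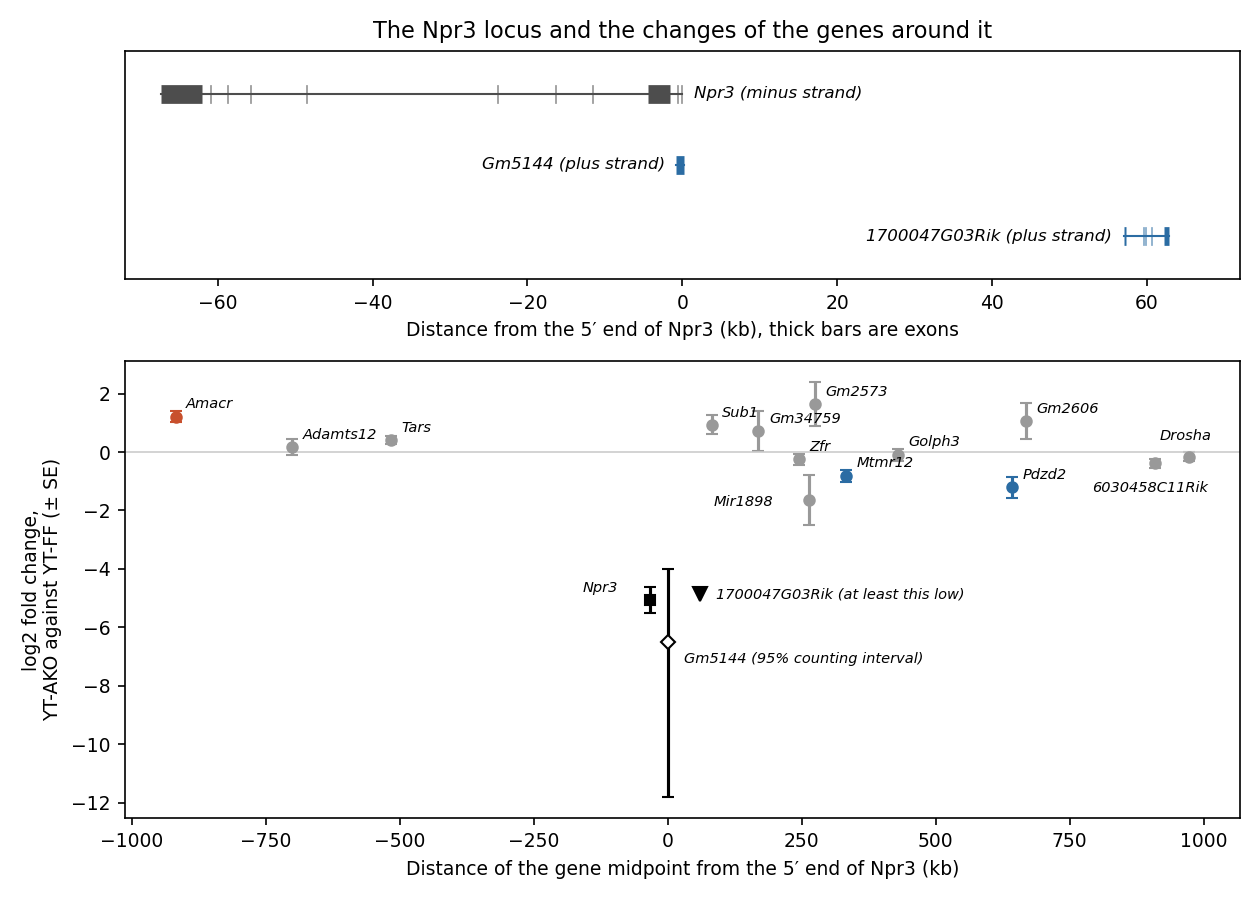
Top: exons (thick bars) of *Npr3*, *Gm5144* and *1700047G03Rik* by distance from the 5′ end of *Npr3* in kb. Bottom: log2 fold change, YT-AKO against YT-FF, of the tested genes within 1 Mb, with bars for ± SE (red called higher, blue called lower, grey not called), and *Gm5144* as the ratio of counts with its 95% counting interval and *1700047G03Rik* as a bound; the 3 locus genes lie at or below -4.87 and the neighbours between -1.65 and 1.65.

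Few of the other genes around the receptors were called. Of 43 listed genes of natriuretic peptide and cGMP signaling, 37 were tested, 3 were higher and 1 was lower, which is 10.8% called beside 21.6% of all tested genes, and their median log2 fold change was -0.14. The list was drawn up with earlier results of these data known. All 4 calls were lost without YT-FF 1 or without YT-FF 2, and those of *Lipe* and *Ppp1r12a* also without YT-FF 3 or YT-AKO 3.

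Transcripts of the peptide genes were close to absent, while peptide reaching the tissue from elsewhere was not measured. *Nppb* and *Ostn*, the latter encoding a peptide that binds NPR-C, had no fragment in any library, and *Nppa* and *Nppc* had 1 fragment each over the 6 libraries. A count of 0 allows 3 fragments, or 0.128 to 0.177 CPM per library. Of the enzymes that process or degrade the peptides, 4 were tested and 0 were called by edgeR, the most abundant being the insulin-degrading enzyme gene *Ide* (log2 fold change -0.29, SE 0.225, adjusted p = 0.363). Of the other guanylyl cyclases and nitric oxide synthases, 6 were tested and 0 were called, with the endothelial synthase *Nos3* the most abundant (0.51, SE 0.172, edgeR adjusted p = 0.0662). Of the phosphodiesterases that hydrolyse or respond to cGMP, 9 were tested and 0 were called, with the adipocyte enzyme *Pde3b* the most abundant (-0.10, SE 0.268, edgeR adjusted p = 0.794).

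Among 9 partners and substrates of the kinase, *Rgs2*, a regulator of G protein signaling, rose, and *Ppp1r12a*, the targeting subunit of myosin phosphatase, fell. That is 22.2% called beside 21.6% of all tested genes. *Rgs2* was at 39.0, 37.1 and 30.3 CPM in YT-FF and 84.1, 100 and 102 in YT-AKO (log2 fold change 1.43, SE 0.168, edgeR adjusted p = 0.0146). *Ppp1r12a* was at 107, 104 and 96.1 CPM in YT-FF and 75.5, 63.1 and 58.7 in YT-AKO (-0.64, SE 0.157, edgeR adjusted p = 0.0309), and with gene length fitted out it was -0.29 (adjusted p = 0.203). Neither gene overlapped between the groups. *Vasp*, a classical substrate of the kinase and the most abundant of this group, was not called (-0.18, SE 0.234, edgeR adjusted p = 0.584). None of the 3 inhibitory G protein genes to which NPR-C couples was called by edgeR. The CPM of the groups did not overlap for any of them, as was so for 51.5% of all tested genes. *Gnai2*, the most abundant, was at 0.18 (SE 0.156, edgeR adjusted p = 0.423), while *Gnai1* at -0.86 (SE 0.284, edgeR adjusted p = 0.0631) and *Gnai3* at -0.50 (SE 0.180, edgeR adjusted p = 0.0764) lay the other way.

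Of 6 adipocyte effectors of cGMP, *Ucp1* and *Lipe* rose, which is 33.3% called beside 21.6% of all tested genes. The other 4 were not called, with log2 fold changes from -0.21 to 0.36. *Ucp1*, the uncoupling protein of thermogenic fat, was at 6.78, 3.69 and 9.84 CPM in YT-FF and 144, 395 and 243 in YT-AKO (log2 fold change 5.27, SE 0.513, edgeR adjusted p = 0.00782). *Lipe*, which encodes hormone-sensitive lipase, was at 1167, 1261 and 1505 CPM in YT-FF and 1810, 2984 and 2238 in YT-AKO (0.84, SE 0.247, edgeR adjusted p = 0.0477). Both were without overlap, though *Lipe* was close to the threshold. *Plin1*, the lipid droplet coat protein that the lipases act beside, was the most abundant of the group and was not called (0.36, SE 0.274, edgeR adjusted p = 0.352).

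**Figure D4:**
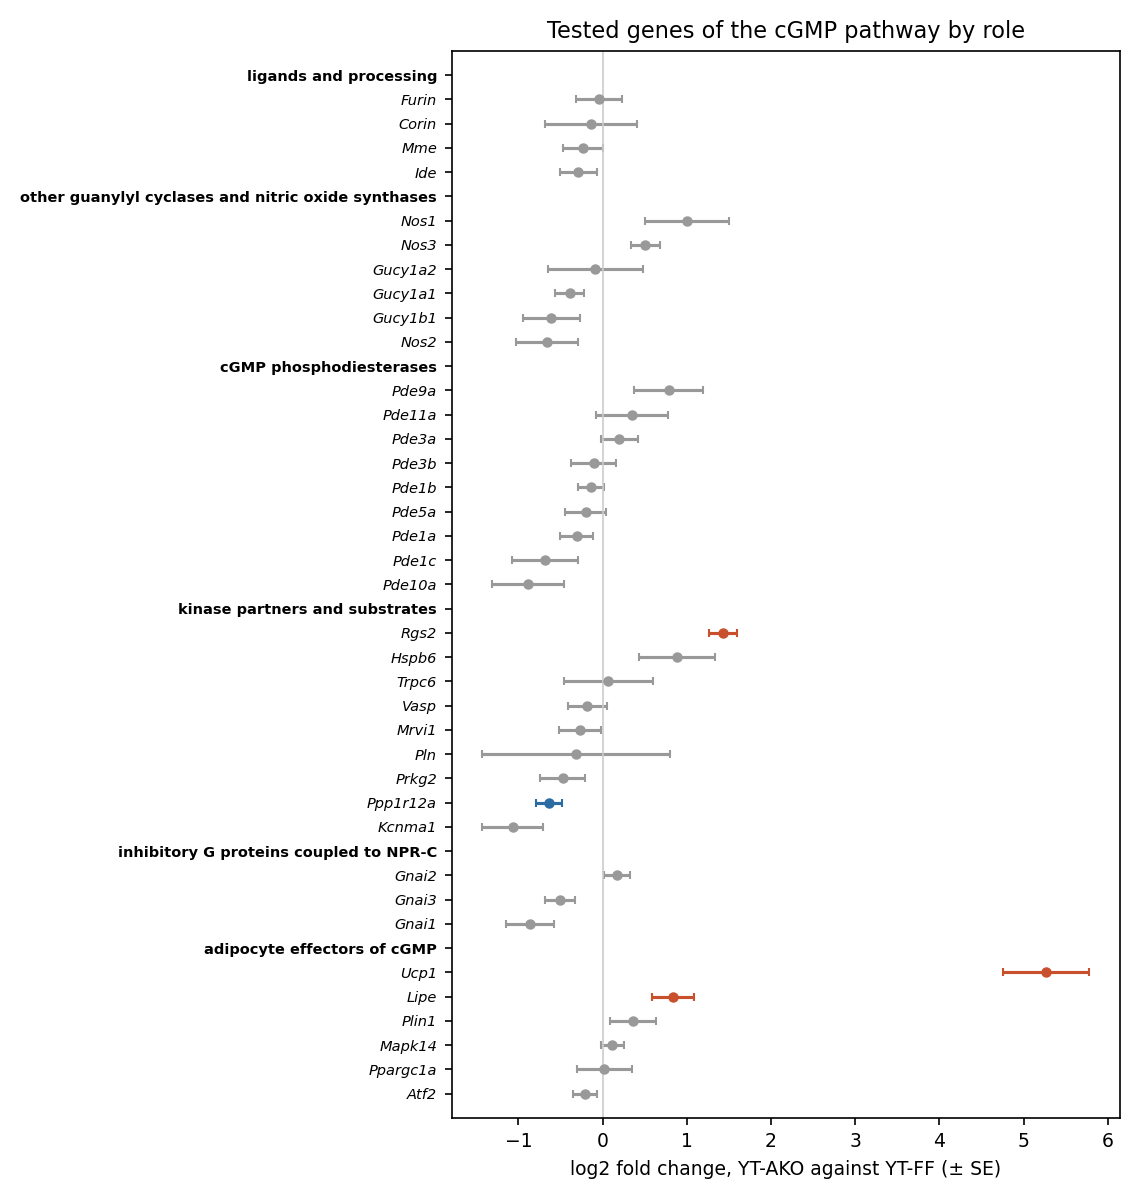
Log2 fold change, YT-AKO against YT-FF (x axis), of the 37 tested genes of the cGMP pathway by role, with bars for ± SE (red called higher, blue called lower, grey not called by edgeR at an adjusted p under 0.05). *Ucp1* at 5.27 and *Rgs2* at 1.43 lie to the right of all other genes, and 33 of the 37 were not called.

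The genes whose profile over the 6 libraries was nearest to that of *Npr3* shared both the low YT-AKO level and the high value of YT-FF 3. Both likenesses follow from the choice, as the 5 genes were picked by this nearness in the same libraries. The measure was the root mean square distance between log2 CPM, each gene centred on its own mean, and its median over all tested genes was 2.49. A prior count of 2 was added before the logarithm, so for a library with 0 counts the value rests on the prior count alone. The nearest was *Rpl29*, a ribosomal protein gene on chromosome 9, at 0.193, with 107, 102 and 229 CPM in YT-FF and 5.76, 5.72 and 4.85 in YT-AKO. Ribosomal protein genes have near-identical copies between which counting can split reads, so this level is uncertain. *1700047G03Rik* came next at 0.359, then *Klf14*, a Krüppel-like factor gene on chromosome 6, at 0.547, *Gm5144* at 0.578 and *Ighv8-12*, an immunoglobulin heavy chain segment on chromosome 12, at 0.743. *Klf14* gave 29, 45 and 79 counts in YT-FF and 0, 0 and 1 in YT-AKO, and *Ighv8-12* gave 30, 32 and 67 against 1, 0 and 2.

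**Figure D5:**
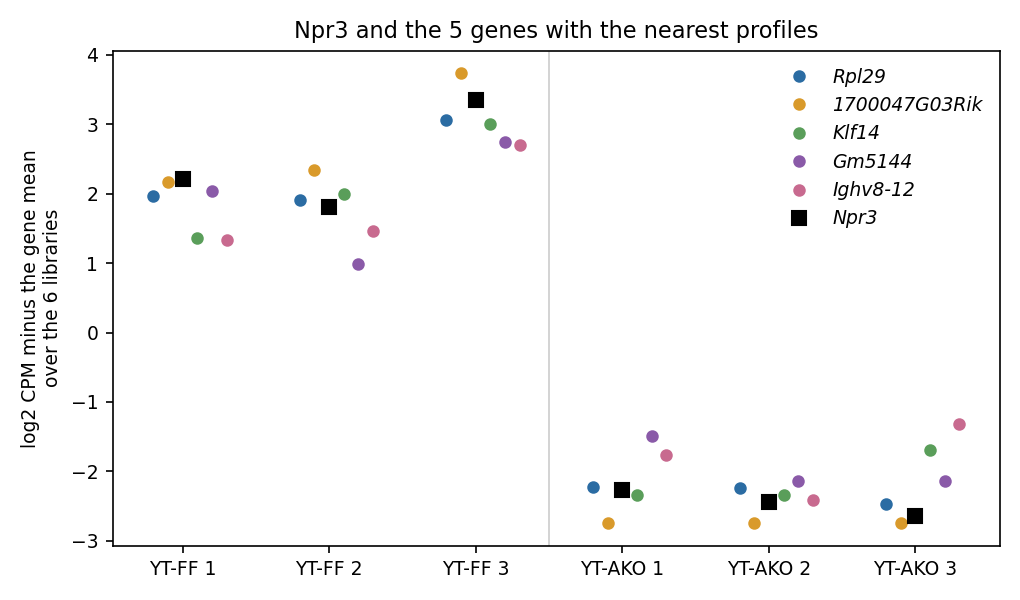
Log2 CPM (prior count 2) minus each gene's mean over the 6 libraries (y axis), by library (x axis). Black squares are *Npr3* and coloured points the 5 genes with the nearest profiles. All 6 genes are above 0 in the 3 YT-FF libraries, highest in YT-FF 3, and below 0 in the 3 YT-AKO libraries. This likeness follows from the choice of the nearest profiles.

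*Npr1* had other neighbours in this measure, for which the median over all tested genes was 0.642. The nearest was *Alas1*, which encodes the first enzyme of heme synthesis, at 0.0797, with 286, 282 and 266 CPM in YT-FF and 680, 585 and 505 in YT-AKO. *Gcgr*, the glucagon receptor gene, followed at 0.0896 with 17, 17 and 13 counts in YT-FF and 27, 27 and 24 in YT-AKO, and *Car11*, a carbonic anhydrase-related gene, at 0.108. In all 3, as in *Npr1*, the lowest library of YT-AKO was YT-AKO 3. The CPM of the groups did not overlap, as for 51.5% of all tested genes. The 3 genes were picked by nearness to *Npr1* in these same libraries, so such likeness follows from the choice.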

How the data were processed

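RNA-seq was performed on scWAT in 3 YT-FF and 3 YT-AKO libraries (total RNA by TRIzol, NEBNext Ultra libraries, paired-end reads). The deposited values were raw fragment counts per gene, made by the authors with HISAT2 2.1.0 on mm10 and featureCounts 2.0.1 on GENCODE exons without strand, per the file headers and the methods. From these counts, edgeR 4.0.16 (R 4.3.3) was run with TMM scaling, a filter (filterByExpr, minimum count 10, minimum total 15) and the quasi-likelihood test, Benjamini-Hochberg adjusted over 16807 genes. The SE of a log2 fold change was its absolute value over the square root of the F statistic of that test. CPM used TMM factors and TPM the summed exon length. The fit was tested on simulated data. Alternatives were DESeq2 1.42.0, limma-voom 3.58.1, other scalings and filters, a gene length offset (spline, 6 df), the replicate block and leaving out each library.

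The members and lists were chosen with earlier results of these data known. Named beside the members were pathway genes called and the most abundant of each role, tested neighbours within 1 Mb, and the 5 and 3 genes nearest in profile to *Npr3* and *Npr1*. *Gm24074* was named after its values were seen, as were *Gm16048*, *Gnai1*, *Gnai3*, *Nppa*, *Nppb*, *Nppc* and *Ostn*. Transcript starts and CAGE support came from GENCODE vM21 and windows from RefSeq. Symbols were matched for 55141 of 55401 gene IDs. *Npr1*, *Npr2*, *Prkg1* and *Npr3* proteins were not analysed here.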

Additional observations from a re-analysis of the deposited data

How the results depend on the processing

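The log2 fold changes of *Npr1*, *Npr3*, *Gm5144* and *1700047G03Rik* kept their direction in every alternative that could be run, and *Npr3* ranged from -5.36 with library totals to -4.47 without YT-FF 3. *Gm5144* and *1700047G03Rik* dropped out of the filter of 10 counts in every library. Fitted values of *1700047G03Rik* were -8.89 by DESeq2 and -7.24 by limma-voom, and of *Gm5144* -5.22 by limma-voom, and the cause of the difference was not tested. Library totals gave 0.66 for *Npr1*, -0.081 for *Npr2* and -0.63 for *Prkg1*, and shifted the median of all genes to -0.34. Gene length correction gave 0.20 for *Prkg1* (0.15 with the block). In CPM the *Npr1* to *Npr3* ratio was 0.194 in YT-FF and 11.6 in YT-AKO and the *Npr3* share 70.9% and 5.11%; with length correction the YT-AKO values were 20.6 and 2.93%. Leaving out single libraries gave -5.34 to -4.47 for *Npr3*, -9.86 to -8.95 for *1700047G03Rik*, -8.18 to -5.62 for *Gm5144*, a YT-FF ratio of 0.290 to 0.549 and a YT-FF share of 48.0 to 61.1%.

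Genes called higher and lower (2121 and 1515) were 3031 and 2392 by DESeq2, 1137 and 2828 with library totals, 763 lower with length correction, and 0 to 2925 and 0 to 2424 without single libraries. Pathway calls (3 higher, 1 lower) became 4 lower by DESeq2, 5 with totals, 2 without the filter, 3 with the stricter filter and 0 with length correction, and 0 to 5 higher and 0 to 3 lower without single libraries. Calls among neighbours (1 higher, 2 lower) became 3 higher by DESeq2, 2 without the filter, 2 higher and 0 lower with length correction, 0 higher within 0.5 Mb, and 0 to 3 and 0 to 2 without single libraries. Without YT-FF 1, edgeR called 0 genes in all, with 4665 at an unadjusted p under 0.05, and without YT-FF 2 it called 2 (*Npr3* and *Rpl29*), with 4507. Pathway and neighbour calls were 0 in both. Pathway calls lower were also 0 without YT-FF 3 and without YT-AKO 3, and neighbour calls lower without YT-FF 3.

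The deviations of same-numbered libraries had correlations of 0.126, -0.118 and -0.0893, beside -0.140 to 0.160 for differently numbered ones. With 3 libraries per group this cannot decide whether the numbers pair the samples. The replicate block left 24 genes higher and 9 lower, *Npr3* the 1 member among them, 1 and 0 in the pathway and 0 and 0 among neighbours; with length correction 59 and 22, 1 and 0, and 0 and 0.

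Of 474 alternatives over 30 other named genes, 391 kept direction and side of the threshold, 60 lost the call, 11 gained it and 12, over 8 uncalled genes, turned sign: *Ide* 0.014 and *Drosha* 0.044 with length correction (0.041 for *Drosha* with the block too), *Pde3b* 0.26 with it and 0.27 with the block too, and *Gnai2* -0.15 and *Adamts12* -0.12 with library totals. Without single libraries, *Pde3b* ran from -0.23 to 0.12 (0.06 without YT-FF 3), *Vasp* from -0.37 to 0.031, *Gm34759* from -0.037 to 1.18 and *Golph3* from -0.22 to 0.072. The cause was not tested. At this depth *Gm5144*, *1700047G03Rik* and *Prkg1* rest on at most 176 fragments a library.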
